A study of Gallus gallus with 4 samples.

Results

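A group of 156 chick genes was expressed in the area vasculosa at stages HH10, HH11 and HH12 and had an at least 2-fold lower level at stage HH13 than at each of them. The area vasculosa is the ring of extraembryonic tissue around the embryo in which blood islands and the first yolk sac vessels form over a layer of endoderm, under a covering of ectoderm. HH stages are the Hamburger-Hamilton stages of chick development, and the stage is the only difference between the libraries that the sample labels used here give. RNA was sequenced from 1 library per stage, and neither the number of embryos behind a library, their strain nor their sex was given in the sources used here. Values are FPKM, fragments scaled to transcript length and library size. With 1 library per stage no difference below has a replicate check or a standard deviation, and the number of reads is unknown. No p-value was computed here, and q-values that the authors deposited are given near the end.

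The members were chosen on these same values. Of 17012 genes, 7994 lay on a numbered chromosome, had at least 1 FPKM in each of HH10, HH11 and HH12 and did not fall at both steps from HH10 to HH12. Of these eligible genes the members were those whose lowest value of the 3 earlier libraries was at least 2 times the HH13 value after 1 FPKM was added to each. They make up 1.95% of the eligible genes, and nothing is read from that share, since the same values chose them. Another 19 genes were as much lower in HH13 but had fallen at both earlier steps. With HH10 left out of the rule 241 genes passed it, among them all 156 members. With a pseudocount of 5 FPKM, 69 genes passed it, all of them members.

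Several early embryonic programmes are represented among the members. The epiblast is the sheet of cells from which the embryo and the extraembryonic ectoderm and mesoderm derive. In birds its pluripotent state is tied to the factors NANOG and POUV, the avian counterpart of mammalian OCT4. BMP, Wnt and retinoic acid signals pattern the tissues that leave it, and their ranges are set by secreted antagonists, by enzymes that destroy the signal and by uptake receptors.

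The names "held" and "lost" are shorthand for the rule and fit the members only loosely. The median over the members was 16.2 FPKM in HH10, 24.4 FPKM in HH11, 18.1 FPKM in HH12 and 3.82 FPKM in HH13. Over the eligible genes the medians were 15.6, 16.6, 17.1 and 16.6 FPKM. The median log2 difference between HH13 and the lowest earlier library was -1.37 for the members, a 2.59-fold lower level on the scale of FPKM + 1. It was -1.33 without the 12 members listed at 0 in HH13, where an exact 0 can be a failed estimate. Only 41 members were under 1 FPKM in HH13, and 49 still had at least 10 FPKM there. The difference was at least 4-fold for 32 members and under 2.5-fold for 73. The summed member values, as a share of a library's FPKM, were 1.07%, 2.11% and 1.39% over the earlier stages and 0.361% at the last. Before HH13 they were not level either. The 3 earlier libraries lay within 1.5-fold of each other for 60 members, 38.5%, against 74.4% of the eligible genes.

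**Figure D1:**
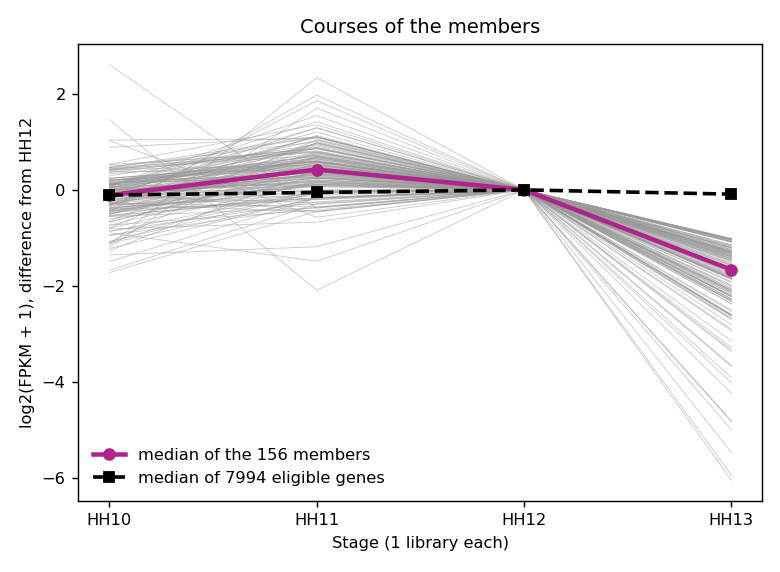
Difference of log2(FPKM + 1) from the HH12 library for each of the 156 members (grey lines), with the median of the members and of the 7994 eligible genes, over the 4 stages. The median member stands above HH12 at HH11 and is 1.66 lower at HH13, while the median eligible gene stays near 0.

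Many members shared a course before the difference. The rule also used these 3 libraries and their order, so the shares below are descriptions. Of the 156 members, 122 had their highest value in HH11, 28 in HH12 and 6 in HH10. HH11 was the highest of the 3 libraries for 78.2% of the members and for 42.6% of the eligible genes. HH12 was the highest for 17.9% and 44%, and HH10 for 3.85% and 13.4%. After scaling to equal FPKM totals, HH11 was the highest for 84.0% of the members and 61.9% of the eligible genes. HH11 exceeded HH10 in 145 members, where 65.8% of the eligible genes did, with a median log2 difference of 0.51 against 0.09 over the eligible genes, and was at least 2-fold higher in 32, where 1.84% of the eligible genes were. From HH11 to HH12 the median member was lower by a log2 difference of -0.42, against 0.05, and 20 members were at least 2-fold lower, where 0.901% of the eligible genes were. HH10 and HH12 were the nearest pair of the 3 libraries for 58.3% of the members and 37.2% of the eligible genes. Between them 12 members were at least 2-fold higher in HH12 and 4 at least 2-fold lower, where 2.18% and 0.475% of the eligible genes were. The markers of blood islands, endothelium and yolk sac endoderm had their lowest summed levels in HH11, and their part in this shape was not tested.

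**Figure D2:**
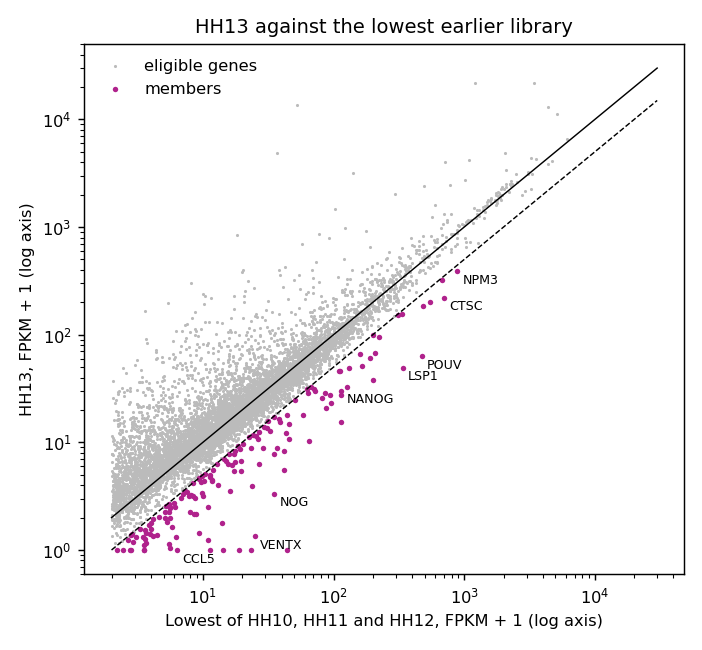
HH13 level against the lowest of the HH10, HH11 and HH12 levels, both as FPKM + 1 on log axes, for the eligible genes (grey) and the 156 members (purple). The solid line marks equal levels and the dashed line the 2-fold threshold. Points at 1 on the vertical axis are listed at 0 in HH13, CCL5 among them, and VENTX and NOG lie far below the dashed line.

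Transcription factors of the epiblast and of early patterning made up 15 members. The groups used here hold members alone and were drawn up after the values were seen, so their differences are descriptions. VENTX, a homeobox factor of the family that in frogs acts downstream of BMP signals, lies on chromosome 6 at 21051932 to 21053666 of build galGal4. It had 24.01 FPKM in HH10, 38.5 FPKM in HH11, 24.4 FPKM in HH12 and 0.353 FPKM in HH13. Its HH13 value was 18.5-fold below the lowest earlier one on the FPKM + 1 scale, the greatest difference of any member with a symbol, and the 3 earlier libraries were all high. POUV, on chromosome 17 at 460123 to 461472, had 620.5, 818, 473 and 62.5 FPKM in stage order, so that its HH13 level, though 7.46-fold lower, was above the members' median of any library. NANOG, on chromosome 1 at 75366745 to 75371263, had 114, 179, 124 and 29.2 FPKM, and was 3.79-fold lower. VRTN, a DNA-binding protein known in pigs for its effect on vertebral number, had 70.3, 97.8, 64.5 and 9.32 FPKM. KLF5, a zinc-finger factor of pluripotent and epithelial cells, had 43.4, 78.5, 42.0 and 11.3 FPKM. In each of these 5 genes HH11 was the highest library, and HH13 was the lowest by the rule.

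These 5 genes were the members among 28 measured genes, 12 of them eligible, of the epiblast and pluripotency list. Of all eligible genes 1.95% were members, but the list was chosen with member values known, so nothing is read from its share. The same 5 were also all of the list's genes at least 2-fold lower in HH13 than HH12, 5 of 28, with 5 higher. Over all 11773 genes tested, 2.95% were that much lower and 8.53% higher. The median log2 difference of the list was 0.04, against -0.003 over all genes. Other early embryonic regulators varied. The RNA-binding protein gene LIN28A had 73.0, 59.1, 44.6 and 44.2 FPKM, and the DNA methyltransferase gene DNMT3B had 48.7, 43.9, 41.0 and 43.2 FPKM. SALL4, a zinc-finger partner of OCT4 in mammals, had 67.1, 95.5, 61.4 and 32.5 FPKM, the same shape with a smaller difference than the threshold. POUV and NANOG are also germ cell genes, and germ cells enter the blood around these stages. The defining germ cell gene DDX4 had 0.713, 0.887, 0.900 and 0.0761 FPKM, and DAZL had 0.673, 0.528, 1.52 and 0.329 FPKM. The 5 germ cell markers summed to 15.1, 8.80, 9.55 and 8.62 FPKM, none of them listed at 0. PIWIL1 made up most of the last sum, with 2.91 FPKM in HH12 and 6.49 FPKM in HH13. The other 4 were lower in HH13 than in HH12, as POUV and NANOG were, with TDRD9 at 3.39 and 1.49 FPKM and DND1 at 0.833 and 0.234 FPKM. The part of germ cells in the POUV and NANOG values was not tested.

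Regulators of mesoderm and endoderm were members too. EOMES, a T-box factor of the primitive streak, had 6.52, 8.43, 4.47 and 0.131 FPKM. CDX2, a caudal and extraembryonic homeobox factor, had 112, 159, 115 and 44.8 FPKM, a 2.46-fold difference, and SNAI1, a repressor of epithelial character, had 30.2, 53.2, 33.6 and 12.7 FPKM. With a pseudocount of 5 FPKM, EOMES and SNAI1 were less than 2-fold lower. These were the 3 members among 17 measured genes, 8 of them eligible, of the primitive streak and caudal mesoderm list. In it 6 genes were at least 2-fold lower in HH13 than HH12 and 6 higher, where 2.95% and 8.53% of all genes tested were. The list median was -0.41. SNAI2, the paralogue of SNAI1, was among the higher ones with 14.8, 4.87, 14.5 and 48.7 FPKM. GATA4, a zinc-finger factor of endoderm and heart, had 37.9, 68.0, 25.9 and 5.34 FPKM and was 4.25-fold lower. Its paralogues had 83.1, 99.4, 78.2 and 66.4 FPKM for GATA6 and 33.6, 27.2, 32.0 and 29.7 FPKM for GATA5. Of 20 measured genes of the yolk sac endoderm list, 18 were eligible and 2 were members, GATA4 being one. These 2 were also its only genes at least 2-fold lower in HH13 than HH12, while 14 were at least 2-fold higher.

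The rest of the transcription factor group ranged widely. FOXI2, a forkhead factor, had 9.99, 14.98, 13.4 and 1.501 FPKM, a 4.396-fold difference. BHLHE40, a clock-linked repressor, had 10.7, 40.6, 19.2 and 3.34 FPKM. SOX13, an HMG-box factor, had 10.8, 13.1, 8.33 and 3.55 FPKM and was close to the threshold. PITX3, a paired-type homeobox factor, had 121, 141, 109 and 44.6 FPKM. RIPK4, a kinase of epidermal differentiation that is in none of the groups, had 7.396, 18.2, 7.93 and 2.21 FPKM. All 15 factors of the group had their highest value in HH11, and their median log2 difference from the lowest earlier library was -1.81. GHOX-7, which the RefSeq gene table gives as a synonym of MSX1, a homeobox target of BMP signals, stood just outside the threshold with 135, 196, 142 and 67.7 FPKM.

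**Figure D3:**
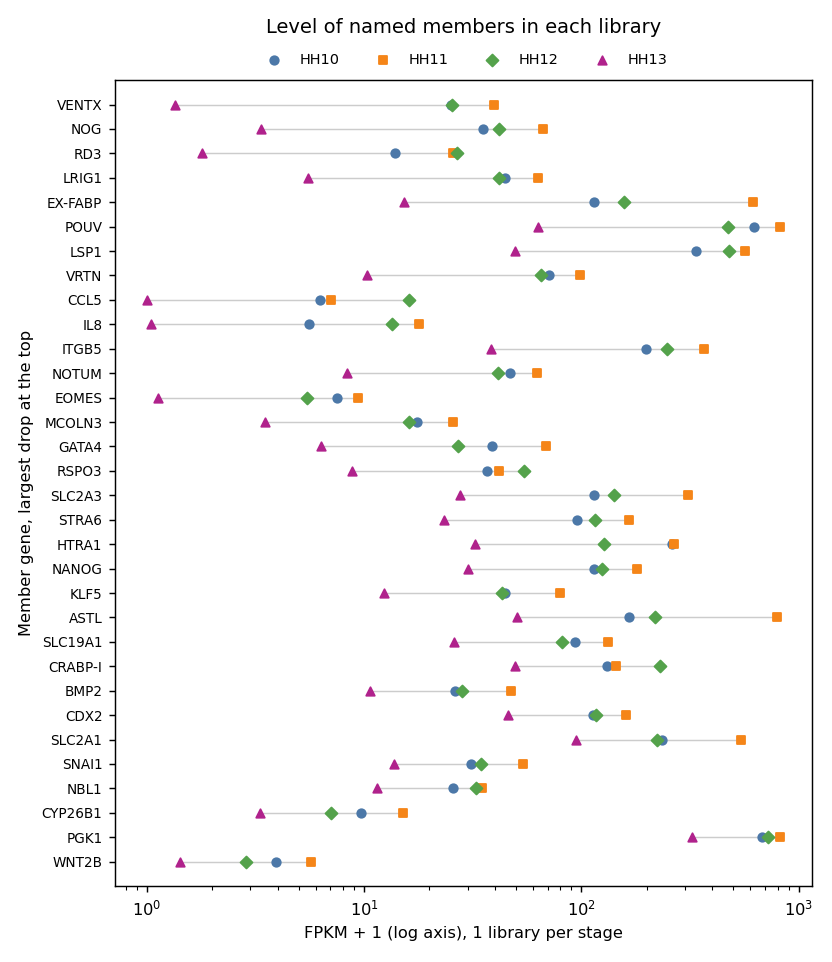
Level of 32 named members in each of the 4 libraries, as FPKM + 1 on a log axis. Each row is a gene, each symbol a library, and the grey line spans its values. HH13 is the lowest library in every row by the rule, and HH11 is the highest in most of them.

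Secreted signals and their antagonists formed the next group. NOG encodes noggin, which binds BMPs outside the cell, and lies on chromosome 18 at 6162700 to 6163371. It had 34.3, 65.6, 40.8 and 2.34 FPKM in stage order, a 10.6-fold lower level in HH13 than in the lowest earlier library. BMP2, a ligand that noggin binds, had 25.3, 46.3, 27.2 and 9.68 FPKM, and NBL1, another BMP antagonist, had 24.7, 33.8, 31.6 and 10.5 FPKM. All 3 were highest in HH11, while the rule fixed HH13 as their lowest library. NBL1 was less than 2-fold lower with a pseudocount of 5 FPKM. BMP4 had 19.9, 32.1, 22.2 and 15.7 FPKM, BMP7 had 47.0, 54.3, 40.6 and 20.9 FPKM, and neither was a member. Of 29 measured genes of the BMP and TGF-beta list, 4 were at least 2-fold lower in HH13 than HH12 and 1 higher. The list median was -0.21, and the shares over all genes tested were 2.95% lower and 8.53% higher. The antagonist gene CHRD was the higher one, with 3.70, 0.922, 0.440 and 2.75 FPKM.

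Wnt pathway members acted at different levels of the pathway. RSPO3, a secreted protein that raises Wnt signalling through LGR receptors, had 35.9, 40.8, 53.2 and 7.83 FPKM, and was highest in HH12 rather than HH11. NOTUM, an enzyme that inactivates Wnt ligands by removing their lipid, had 45.8, 61.7, 40.5 and 7.32 FPKM. AXIN1, a scaffold of the complex that degrades beta-catenin, had 37.1, 45.7, 39.5 and 15.4 FPKM, summed over 2 rows of the same locus, and is in none of the lists. WNT2B, a ligand, was near the floor at 2.94, 4.71, 1.85 and 0.419 FPKM and was less than 2-fold lower with a pseudocount of 5 FPKM. Of 41 measured genes of the Wnt list, 6 were at least 2-fold lower in HH13 than HH12 and 6 at least 2-fold higher. Over all genes tested these shares were 2.95% and 8.53%, and the list median was 0.09. Among the lower ones were the ligand genes WNT3A, with 16.6, 41.1, 25.5 and 10.5 FPKM, and WNT4, with 26.3, 24.8, 20.3 and 7.32 FPKM. WNT4 was no member, since it had fallen at both earlier steps. The R-spondin receptor gene LGR4 had 10.1, 9.28, 10.6 and 12.6 FPKM.

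Other signalling members included a brake on growth factor receptors and several ligands. LRIG1, a membrane protein that limits the activity of EGF receptors, had 43.6, 62.2, 40.8 and 4.50 FPKM and was 7.602-fold lower in HH13. Its paralogue LRIG2 had 11.3, 12.3, 10.5 and 12.8 FPKM. IGF2, an insulin-like growth factor, had 16.8, 30.3, 15.6 and 5.18 FPKM, and STC2, a secreted glycoprotein hormone, had 7.59, 16.4, 7.92 and 1.15 FPKM. ADCYAP1 encodes the neuropeptide PACAP and had 2.55, 3.16 and 3.80 FPKM in the earlier libraries and was listed at 0 in HH13. VIPR1, a receptor of VIP and PACAP, had 2.21, 2.52, 1.91 and 0.193 FPKM, while the related receptor gene VPAC2 had 0.239, 0.0982, 0.521 and 21.0 FPKM. The histamine receptor genes HRH2 and HRH3 were both members at low levels, with 0.124 and 0.582 FPKM in HH13. No gene of the FGF pathway list was a member. The list had 11 eligible genes, and 1.95% of all eligible genes were members, so nothing is read from that 0. Of its 22 measured genes 0 were at least 2-fold lower in HH13 than HH12 and 6 were higher. The shares over all genes tested were 2.95% and 8.53%, so nothing is read from the 0 lower genes either.

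Chemokine genes were members in neighbouring pairs. IL8, a chemokine that attracts granulocytes, had 4.57, 16.9, 12.4 and 0.0494 FPKM, and was less than 2-fold lower with a pseudocount of 5 FPKM. K60, a related chemokine gene whose locus lies 9627 bases from that of IL8 on chromosome 4, had 1.43, 4.07 and 4.65 FPKM and was listed at 0 in HH13. CCL5, a chemokine for T cells and monocytes, had 5.29, 6.08 and 15.1 FPKM, and GGCL1, a chemokine of the same family, had 1.80, 4.35 and 5.03 FPKM. Both were listed at 0 in HH13. With a pseudocount of 5 FPKM, K60 and GGCL1 were less than 2-fold lower too, while CCL5 still reached 2-fold. CCL5 and GGCL1 share 1 locus in the deposited table, chromosome 19 at 352190 to 378001, and chemokines of a family resemble each other, so how reads were divided within each pair is uncertain. The remaining row of that locus, the unnamed ENSGALG00000000865, had 4.79, 1.15, 2.12 and 2.49 FPKM and was not lower in HH13 than in HH12. All 4 had values of at least 4 FPKM in both HH11 and HH12 and stood under 0.1 FPKM in HH13.

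Further secreted proteins of inflammation were members at widely different levels. CSF3, the granulocyte growth factor, had 2.08, 5.78, 2.15 and 0.310 FPKM. EX-FABP, a lipocalin that binds fatty acids and bacterial siderophores, lies on chromosome 17 at 501842 to 504845 and had 114, 617, 156 and 14.3 FPKM. The gene next to it on that chromosome, the unnamed ENSGALG00000009019, had 2.65, 39.8, 7.08 and 0.162 FPKM. Both peaked sharply in HH11, with HH12 well under HH11 and HH13 the lowest by the rule. PLA2G2A, a secreted phospholipase, had 550.3, 865, 802 and 198 FPKM. Of 28 measured genes of the chemokine and cytokine list, 6 were at least 2-fold lower in HH13 than HH12 and 2 higher. All genes tested gave 2.95% lower and 8.53% higher. Of the 23 eligible genes of the list 3 were members, IL8, CCL5 and EX-FABP. The list median was -0.19. LRG1, an acute-phase glycoprotein, had 3.04, 7.85, 5.45 and 0.779 FPKM. TNFRSF21, a death receptor, had 18.6, 30.1, 19.9 and 5.69 FPKM, and ICOS, a co-stimulatory receptor of T cells, had 2.60, 6.28, 6.55 and 0.527 FPKM. The NF-kappaB target genes NFKBIA and TNFAIP3 had 6.45 and 2.10 FPKM in HH12 and 4.08 and 2.22 FPKM in HH13. The cytokine gene IL6 had low values of 1.42, 2.57, 1.44 and 0.214 FPKM. Its fold of 1.99 was just under the threshold. The macrophage markers CSF1R, PTPRC and RAC2 summed to 3.38, 2.39, 6.53 and 16.1 FPKM, highest in HH13, with none listed at 0.

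Proteases and other secreted enzymes included some of the most abundant members. CTSC, the lysosomal dipeptidyl peptidase that activates serine proteases of granulocytes, had 699, 1052, 782 and 220 FPKM and was 3.17-fold lower in HH13. CTSB, another lysosomal cathepsin, had 732, 571, 790 and 1241 FPKM. HTRA1, a secreted serine protease, had 261, 265, 127 and 31.4 FPKM, so its HH12 value was already under its HH11 value. ASTL, an astacin-like metalloprotease, had 165, 790.4, 218 and 49.8 FPKM, and TGM4, a transglutaminase, had 329, 901, 308 and 150.1 FPKM. AGR2, a protein of the endoplasmic reticulum that helps mucins fold, had 487, 744, 885 and 182 FPKM and was the member among these with its highest value in HH12. ADAMTS20, a secreted metalloprotease, had 2.64, 14.3, 6.75 and 0.269 FPKM, and VNN1, an enzyme that releases the vitamin pantothenate, had 2.97, 28.5, 8.05 and 0.404 FPKM. ENPP2, which makes the signalling lipid lysophosphatidic acid, had 158, 221, 175 and 65.6 FPKM, and its relative ENPP3 had 57.9, 87.4, 78.8 and 16.8 FPKM. Of 35 measured genes of the protease and inhibitor list, 3 were at least 2-fold lower in HH13 than HH12, among them HTRA1 and ASTL. A further 7 were higher, with a list median of 0.08. Among all genes tested 2.95% were lower and 8.53% higher.

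Adhesion and actin genes made up 13 members. LSP1, an actin-binding protein known from leukocytes, had 337, 566, 478 and 48.3 FPKM, a 6.85-fold lower level in HH13. ITGB5, an integrin subunit that pairs with the alpha-v subunit to bind vitronectin, had 198, 367, 246 and 37.3 FPKM, and was 5.20-fold lower. Its partner gene ITGAV had 37.9, 81.1, 46.2 and 20.9 FPKM, the same order of libraries with a difference under 2-fold, while ITGB1 had 91.9, 114, 113 and 136 FPKM.

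FSCN1 and FSCN2 encode fascins, which bundle actin filaments. FSCN1 had 196, 278, 189 and 59.7 FPKM, and FSCN2 had 8.32, 7.92, 8.20 and 1.17 FPKM, the most even values over HH10 to HH12 of any member with at least 5 FPKM in 1 of them. LIMK2, a kinase that inhibits the actin-severing protein cofilin, had 84.4, 108, 71.2 and 28.8 FPKM, whereas LIMK1 had 10.3, 11.97, 7.92 and 8.10 FPKM. AKAP12, a kinase anchor that also binds actin regulators, had 109, 139, 92.5 and 26.3 FPKM. SDC3, a heparan sulphate proteoglycan of the cell surface, had 22.6, 24.2, 16.6 and 5.51 FPKM. The focal adhesion genes TES, FBLIM1 and TNS4 were lower by folds of 2.09, 2.05 and 2.01, and SHROOM3, which drives apical constriction, by 2.03. ANLN, a scaffold of the dividing cell's contractile ring, was the member nearest the threshold, with 61.7, 88.8, 71.3 and 30.3 FPKM and a fold of 2.002. TES, FBLIM1, TNS4, SHROOM3 and ANLN were less than 2-fold lower with a pseudocount of 5 FPKM. After scaling to equal FPKM totals, TES, FBLIM1, TNS4 and ANLN were less than 2-fold lower and SHROOM3 was not. Among named genes that reach 5 FPKM in some library, the nearest outside it were ENDOD1, POF1B, PLS3 and GHOX-7, at folds of 1.999, 1.99, 1.98 and 1.98.

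Uptake and turnover of retinoids and vitamins was represented by 6 members. STRA6, the cell-surface receptor for retinol-binding protein, had 94.8, 165, 114 and 22.2 FPKM and was 4.12-fold lower in HH13. CRABP-I, a protein that binds retinoic acid in the cytoplasm, had 130.4, 144, 230 and 48.4 FPKM, highest in HH12. CYP26B1, an enzyme that breaks down retinoic acid, had 8.68, 14.1, 6.02 and 2.33 FPKM and was less than 2-fold lower with a pseudocount of 5 FPKM. The retinol carrier gene RBP4 was higher in HH13, with 1210, 710, 1863 and 4012 FPKM. The paralogue CYP26A1 had 4.995, 1.87, 5.81 and 8.15 FPKM. Other non-members were lower in HH13. The retinaldehyde dehydrogenase gene ALDH1A1 had 27.5, 19.1, 35.9 and 9.39 FPKM. The retinol dehydrogenase gene RDH10 had 6.93, 11.6, 13.1 and 3.24 FPKM. Of 19 measured genes of the retinoid list, 5 were at least 2-fold lower in HH13 than HH12 and 4 higher. The list median was 0.13, and 2.95% and 8.53% of all genes tested were lower and higher. The folate carrier gene SLC19A1 had 92.5, 132, 80.8 and 24.8 FPKM, and FOLR1, a folate receptor, had 4.76, 7.08, 4.27 and 0.822 FPKM. FOLR1 was less than 2-fold lower with a pseudocount of 5 FPKM. SLC19A1 shares its locus in the table with COL18A1, a collagen gene that had 87.1, 80.7, 67.0 and 158 FPKM. SVCT2, a vitamin C transporter, had 22.5, 27.6, 16.4 and 4.46 FPKM, and the other vitamin C transporter gene SLC23A1 had 6.74, 3.16, 8.71 and 13.3 FPKM.

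Glucose transporters of the widespread type were members and the hepatic type was not. SLC2A3 had 114, 310.4, 141 and 26.5 FPKM, a 4.17-fold difference, and SLC2A1 had 235, 540.2, 221 and 93.6 FPKM, a 2.35-fold difference. SLC2A2, the liver and gut glucose transporter, had 20.8, 17.4, 30.4 and 80.3 FPKM. PGK1, an enzyme of glycolysis, had 676, 819, 722 and 321 FPKM. It was the only member among 35 measured genes of the glycolysis and hypoxia list, whose median was -0.01. PGK1 was also the only gene of that list at least 2-fold lower in HH13 than HH12. Since 2.95% of all genes tested were that much lower, nothing is read from that 1. After scaling to equal FPKM totals, PGK1 was less than 2-fold lower. SLC2A3 and NANOG were neighbouring members on chromosome 1, with 34868 bases between their loci. ATP1B1, a subunit of the sodium pump, had 332, 474, 359 and 156 FPKM and was less than 2-fold lower after scaling to equal FPKM totals.

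Store-operated calcium entry, in which STIM sensors of the endoplasmic reticulum open ORAI channels of the cell surface, was covered by 3 members close to the threshold. STIM1 had 52.3, 91.0, 49.5 and 23.8 FPKM, STIM2 had 21.6, 24.8, 19.2 and 8.64 FPKM, and ORAI1 had 20.2, 25.6, 17.7 and 8.23 FPKM. ORAI2 had 29.4, 28.3, 24.3 and 8.24 FPKM and was outside the rule only because it had fallen at both earlier steps. The rule fixed HH13 as the lowest library of the 3 members, at folds of 2.04, 2.10 and 2.02, and ORAI2 met the same threshold. These genes were singled out after their values were seen. With a pseudocount of 5 FPKM, STIM1, STIM2 and ORAI1 were each less than 2-fold lower. MCOLN3, a calcium channel of endosomes, had 16.5, 24.6, 15.1 and 2.503 FPKM, while its paralogues MCOLN1 and MCOLN2 had 21.2 and 9.21 FPKM in HH13 against 24.2 and 16.6 FPKM in HH12.

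An oxidase pair was present as well. NOXO1, the organiser subunit of the superoxide-making oxidase NOX1, had 205, 249, 209 and 67.2 FPKM. NOX1 itself had 3.34, 4.08, 2.66 and 0.453 FPKM. Both had their lowest value in HH13 by the rule, while the activator gene NOXA1 had 9.41, 8.61, 5.95 and 7.95 FPKM. ANKH, a membrane protein that exports pyrophosphate and ATP, had 86.4, 118, 127 and 19.7 FPKM. SLC26A9, a chloride transporter, had 69.5, 164, 96.7 and 30.2 FPKM, and KCNQ1, a potassium channel, had 4.78, 4.13, 6.06 and 0.969 FPKM.

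The remaining members were of mixed or unknown function. Of the 72 members in none of these groups, 39 carried a symbol, 27 had no symbol and 6 were small nucleolar or Cajal body RNAs. NPM3, a nucleolar histone chaperone, was the most abundant member over HH10 to HH12, with 912, 959, 883 and 386 FPKM, and its relative NPM1 had 3453, 3598, 3253 and 2267 FPKM. RD3, a regulator of guanylate cyclase known from the retina, had 12.9, 24.8, 25.9 and 0.794 FPKM. CMIP, an adaptor protein, had 58.3, 59.95, 44.6 and 9.71 FPKM, and RGCC, a regulator of the cell cycle, had 34.2, 42.6, 39.1 and 6.80 FPKM. NUAK2, a kinase related to AMPK, had 18.6, 32.5, 18.5 and 4.47 FPKM, and UNC5D, a netrin receptor family member, had 4.78, 5.25, 6.11 and 0.628 FPKM. PIK3CB, a catalytic subunit of PI3-kinase, had 18.3, 25.9, 22.3 and 7.68 FPKM. Of the 39, 30 had their highest value in HH11. Over the 39, the log2 difference ran from -2.96 to -1.01. Over the 27 without a symbol it ran from -3.14 to -1.02, and their mean over HH10 to HH12 ran from 2.06 to 378 FPKM.

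The small RNAs were a separate case. SNORA1, SNORA17, SNORA21, SNORA33, SCARNA16 and ACA64 had means of 11.1 to 80.1 FPKM over the earlier libraries and all 6 were listed at 0 in HH13. Of the eligible genes, 20 were of these RNA families. SNORA21 shares its locus with the ribosomal protein gene RPL23, which had 2265, 2624, 2950 and 2652 FPKM, and SNORA33 shares its locus with RPS12, which had 1495.7 FPKM in HH13. Other small RNAs listed on the SNORA1 locus had zeros in other libraries, such as SNORA40 in HH12 and SNORA32 in HH10. Only 1 of the 6 was highest in HH11. Without these rows 150 members remained, with a median log2 difference of -1.33.

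**Figure D4:**
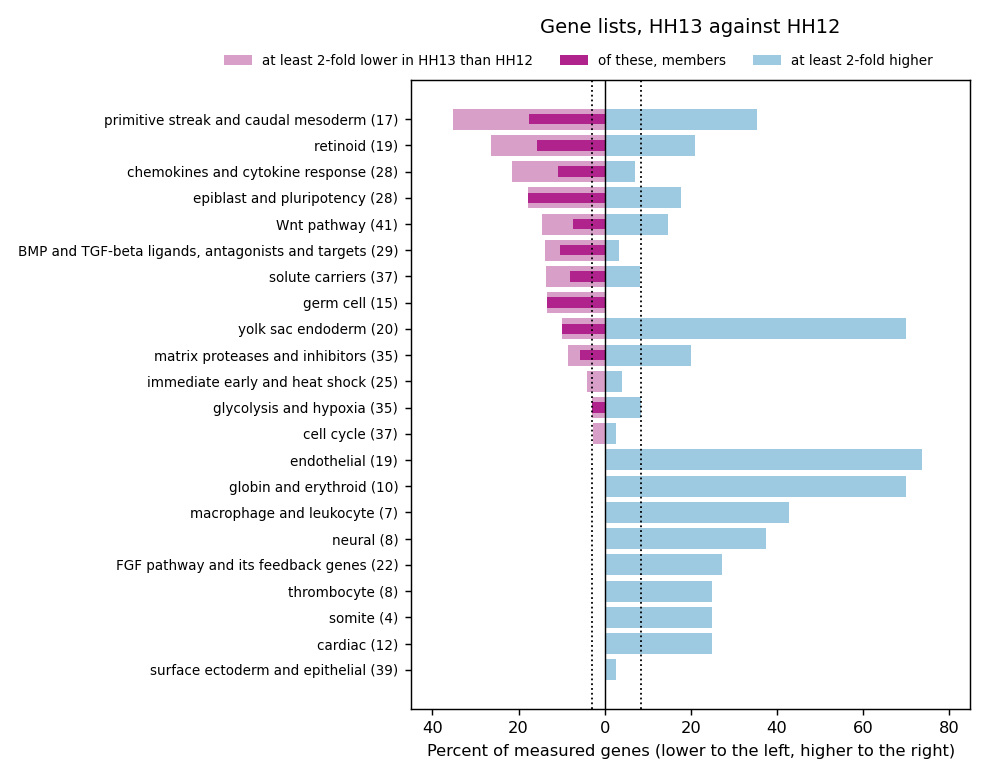
Percent of the measured genes of each of 22 gene lists (number measured in brackets) that were at least 2-fold lower (left) or higher (right) in HH13 than in HH12, with the share that were members in dark purple. Dotted lines mark the percentages over all genes tested, 2.95% lower and 8.53% higher. The ectoderm list has no lower gene, and the endothelial, globin and endoderm lists extend far to the right.

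Members were found in some of the lists and not in others. The lists hold 480 distinct measured genes, of which 312 were eligible and 28, or 8.97% of the eligible ones, were members. The lists were chosen with member values known, so nothing is read from that share. In the surface ectoderm and epithelial list 39 genes were measured and 32 were eligible, and none was a member. With 1.95% of all eligible genes being members, nothing is read from that 0. None of the 39 was at least 2-fold lower in HH13 than HH12 and 1 was higher, with a median of 0.06. In the cell cycle list 1 of 37 was lower, 1 was higher and none was a member, with a median of -0.40. The endothelial list had 14 of 19 genes at least 2-fold higher and the globin and erythroid list 7 of 10, with 0 lower in both and no member. With 2.95% of all genes tested lower and 8.53% higher, nothing is read from the counts of 0 or 1 in these lists.

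Cell composition bears on all of these values, because in bulk tissue fewer cells of a type and less RNA per cell cannot be told apart. The tissue label was borne out for blood, vessel and endoderm genes. The 5 measured blood island markers summed to 1364, 268, 13060.3 and 29181 FPKM, the 5 endothelial markers to 43.1, 18.4, 36.9 and 109 FPKM, and the 6 endoderm markers to 11818, 4717, 15181 and 44837 FPKM. GATA1, TAL1 and PECAM1 had no row under these names in the deposited table. The members summed to 11576 FPKM in HH12 and 3209 FPKM in HH13, a lower sum that the rule fixed. The part of the higher endoderm and blood levels in the lower member values was not tested.

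**Figure D5:**
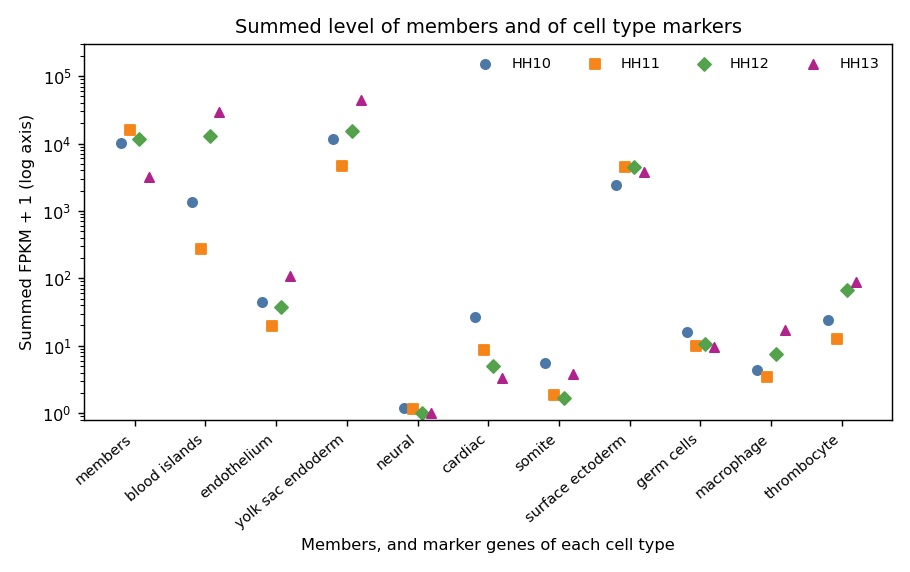
Summed FPKM + 1 on a log axis, in each of the 4 libraries, of the 156 members and of the marker genes of 10 cell types. The members are lowest in HH13 by the rule, and the blood island, endothelial and endoderm markers are highest in HH13. The sum of the surface ectoderm markers differs little between HH11, HH12 and HH13.

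Surface ectoderm markers differed less. The 6 markers summed to 2437, 4511, 4490 and 3750 FPKM, and none was at least 2-fold lower in HH13 than HH12. KRT19, a keratin of simple epithelia and by far the most abundant of them, had 2075, 4053, 4039 and 3390 FPKM, and EPCAM, an epithelial adhesion protein, had 283, 361, 388 and 307 FPKM. GRHL3, an epidermal transcription factor, had 30.7, 32.7, 29.9 and 19.9 FPKM. TFAP2A, a factor of ectoderm and neural crest, had 45.2, 60.8, 30.7 and 26.4 FPKM. Both were highest in HH11 and lowest in HH13, the order of many members at a smaller size. Of the 6 markers, 4 were lower in HH13 than in HH12. TP63 went the other way and was highest in HH13, with 3.29, 2.96, 2.86 and 6.403 FPKM in stage order. KRT7 was listed at 0 in HH11, HH12 and HH13. Cardiac markers summed to 25.9, 7.52, 3.94 and 2.27 FPKM, somite markers to 4.60, 0.832, 0.665 and 2.84 FPKM, and OLIG2, the neural marker measured, had at most 0.176 FPKM. Thrombocyte markers summed to 22.9, 11.5, 66.6 and 86.8 FPKM.

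Position in the genome was not used by the rule beyond the numbered chromosomes. Members lay on 27 of the 28 chromosomes with eligible genes. Chromosome 26 held 7 members among its 136 eligible genes, 5.15%, and chromosome 11 held 1 of 227, 0.441%, against 1.95% in all. In 10 instances members were next to each other in the order of eligible genes, among them SLC2A3 with NANOG, K60 with IL8, EX-FABP with ENSGALG00000009019 and VRTN with SYNDIG1L, whose loci lie 5896 bases apart. The loci of the 10 pairs were 799 to 432485 bases apart, and how many such pairs other genes form was not tested. Of the 156 members, 17 had a locus that the table also gives to another row, 10.9% against 14.5% of the eligible genes.

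In the authors' deposited table, which was computed on the same libraries without replicates of a stage, 20 members had a q-value under 0.05 between HH12 and HH13. Across the eligible genes the authors' deposited table gave 22 genes that were lower in HH13 at that threshold, 0.275%. By the authors' deposited table, q-values of 11 members were under 0.05 between HH10 and HH13 and 28 between HH11 and HH13, where 0.163% and 0.425% of the eligible genes were under it and lower in HH13. In the same authors' deposited table, q-values of 10 members were under 0.05 in all 3 comparisons with HH13, namely ANKH, CMIP, ITGB5, LRIG1, LSP1, NANOG, POUV, SLC2A3, STRA6 and VRTN. By the authors' deposited table, 124 members were under 0.05 in none of the 3, among them VENTX, NOG, EOMES, IL8 and CCL5. The rule chose the members on the same values, so nothing is read from their counts beside the eligible shares.

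The same floor and factor, with falling genes kept, gave other numbers of genes for other libraries. For HH13 that count was 175. On the numbered chromosomes, 191 genes were at least 2-fold lower in HH11 than in each other library, 24 in HH10 and 17 in HH12. Conversely, 580 genes were at least 2-fold higher in HH13 than in each earlier library. The 19 genes that fell at every stage and were at least 2-fold lower in HH13 had a median log2 difference of -1.46, near that of the members, and a median mean level of 8.74 FPKM over HH10 to HH12 against 20.3 FPKM for the members.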

How the data were processed

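The area vasculosa of chick embryos was sequenced in 4 libraries, 1 per stage. TopHat2 2.0.8, Cufflinks, Cuffdiff and build galGal4 are named, per the submitters' processing notes. Nothing on annotation release or library scaling is known here. The authors deposited FPKM per gene and library, and p-values and q-values for each pair of stages, per the file headers. FPKM keeps no read count, so depth is unknown and no interval or count test was possible. Of 17108 rows, those of 1 symbol were summed and rows without a symbol kept their Ensembl identifiers, which gave 17012 genes. Of these, 11773 reached 1 FPKM in at least 1 library. Differences are of log2(FPKM + 1), which understates those of low genes, and were described by size with no p-value. Every comparison with HH13 rests on the same HH13 library.

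The members, the 22 gene lists and the groups were chosen with earlier results of these data known. Named genes were, among those that carry a symbol and reach 5 FPKM in a library, the members with the 15 largest differences, the 10 highest means or the 10 most even earlier values and the 4 genes nearest the threshold on each side, and, at any level, members in a list. Paralogues, partners and further members were named after their values were seen. Of 123 member symbols, 108 matched the RefSeq gene table of GRCg7b and 13 a synonym in it, and it was used for names only. The rule was tested on simulated data. Starts are 1 higher than deposited. Python 3.11.15, pandas 2.3.3, numpy 2.4.6 and matplotlib 3.10.9 were used. Alternatives covered pseudocounts, floors, scalings, row handling, the factor and each stage left out of the rule. Some genes are not reported here.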

Additional observations from a re-analysis of the deposited data

How the results depend on the processing

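Of the alternatives to the rule, those that moved the count of members by over 1.5 times were a pseudocount of 5 FPKM with 69 genes, a factor of 1.5 with 442, a factor of 4 with 32, and HH10 left out of the rule with 241. Leaving out HH11 or HH12 gave 169 and 206 genes, and scaling to the same total FPKM gave 169 genes of which 140 were members. Median-of-ratios scaling gave 156, but its divisors lay between 0.998 and 1.001, so it hardly changed the values. The median log2 difference stayed between -1.56 and -0.83 except with a factor of 4, where it was -2.62. The count of members highest in HH11, 122, was 53 with a pseudocount of 5 FPKM, where fewer genes passed the rule, and their share was 76.8%. Scaling to the same total moved the median log2 difference of all genes between HH13 and HH11 from -0.03 to -0.23. Of the 51 members named by the criteria given above, 14 were less than 2-fold lower with a pseudocount of 5 FPKM. At the same total FPKM 5 of them were (PGK1, ATP1B1, ANLN, TNS4 and ACAP2). None of the 51 was higher in HH13 under any setting tried. Further members named in the text were outside these counts. Among those, SOX13, FOLR1 and NOX1 were also less than 2-fold lower with a pseudocount of 5 FPKM. Leaving out the small RNA rows and genes at 0 in HH13 was chosen after seeing the data, as were the settings for HH11. Promoter windows were not run. No paired analysis was possible because each stage had 1 library.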
